A study of Mus musculus with 9 samples.

Results

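The mRNAs described here are those that mitochondrial DNA encodes for the cytochrome complexes and the ATP synthase: CO1, CO2, CO3, CYB, ATP8 and ATP6. They are 6 of the 40807 transcript rows of the deposited table. The table pairs no identifier with a gene name, so these 6 rows were chosen by place alone. Its first 37 rows follow the gene order of the vertebrate mitochondrial genome, and the names belong to rows 16 (CO1), 19 (CO2), 21 (ATP8), 22 (ATP6), 23 (CO3) and 35 (CYB). Every gene name below is therefore the name of a row position, not of an identifier looked up in an annotation.

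Poly(A) RNA of ovary was sequenced in 9 libraries, 3 in each of 3 groups. All samples are labelled as mouse, strain Balb/c. The Blank group has no further treatment in its labels, the POF group is a model of premature ovarian failure, and the POF+BSHXF group is that model given Bushen Huoxue Fang, a Chinese herbal formula. The sources used here do not give how the model was made, the dose and duration of the formula, the animals' age or whether animals were pooled. They also do not say whether each library is from its own animal, so every p-value is about the spread of these libraries, and that spread may be technical. The identifiers all have Ensembl's rat prefix, ENSRNOT, while mouse is the labelled organism, and the tissue label was not checked against ovarian marker genes because no row has a symbol.

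Mitochondria make ATP by passing electrons along complexes in their inner membrane and using the resulting proton gradient to drive the ATP synthase. Most subunits of these complexes are encoded in the nucleus, but a few core ones are encoded by the mitochondrial genome, which is transcribed as long precursors and cut into single mRNAs, mostly at the tRNAs between them. In the ovary, oocytes and steroid-producing cells are rich in mitochondria. In bulk tissue a lower mitochondrial mRNA level from fewer cells of one type cannot be told apart from less mRNA per cell.

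The levels at these positions suited mRNAs. The 6 rows held 230648 to 5595972 estimated counts per library, and the 7 rows at the positions of complex I mRNAs held 109662 to 1221052. The 22 tRNA rows held 9 to 5653 and the 2 rRNA rows held 66530 to 212510. The smallest ratio of CO1 to a flanking tRNA row in any library was 1416, beside tRNA-Y. For CYB the smallest such ratio was 227, beside tRNA-Glu.

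**Figure D1:**
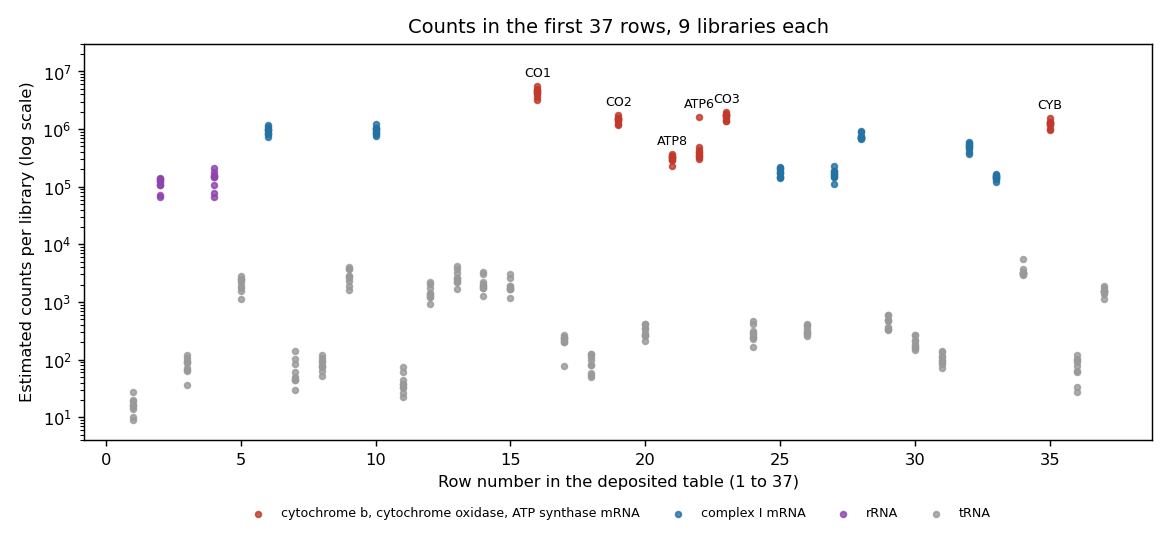
Estimated counts per library (log scale) for the first 37 rows of the table, 9 points per row, coloured by the kind of gene at that position. The mRNA positions hold at least 109662 counts and the tRNA positions at most 5653, and 1 ATP6 point lies far above the other 8.

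ATP8 and ATP6 are neighbours whose reading frames overlap on 1 mRNA. In the mouse transcripts, ATP8 has 204 bases, ATP6 has 681, and the last 43 bases of ATP8 (21.1% of it) are the first 43 of ATP6. The junction is shown because the 2 rows compared most closely below share these bases. It comes from the mouse GENCODE M21 transcripts, with the shared bases in capitals, 30 bases of ATP8 before them and 30 of ATP6 after them. The rat sequence and the build behind the table were not used here, so no coordinates are given.
mt-Atp8/mt-Atp6 junction: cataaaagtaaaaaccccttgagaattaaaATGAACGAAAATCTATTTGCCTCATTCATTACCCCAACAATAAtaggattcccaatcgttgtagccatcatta
The capitals open with the ATG start of ATP6 and close with the TAA stop of ATP8. Reads from this stretch belong to both rows, and the sources used here do not say how the authors' counting divided them.

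Library totals ran from 41231313 to 58392086 estimated counts. On the first principal component of log2 CPM (CPM is a count scaled to its library's total, here with totals adjusted by TMM, the trimmed mean of M values), POF replicate 1 (155.1) and POF+BSHXF replicate 3 (155.9) stood apart at one end. The other 7 libraries lay between -117.5 (Blank replicate 1) and 65.7. That component held 28.2% of the variance. Blank replicate 1 also had the smallest TMM factor, 0.896 against 0.970 to 1.06 in the others.

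The 6 rows together took 23.3%, 19.6% and 20.1% of all counts in Blank replicates 1 to 3. The values were 15.5%, 18.9% and 18.6% in POF, and with the formula 17.02%, 19.98% and 19.8%. The mean was 20.98% ± 2.00 for Blank, 17.7% ± 1.89 for POF and 18.9% ± 1.67 for POF+BSHXF (SD, n = 3). The POF libraries all lay below the Blank libraries, and the POF+BSHXF libraries overlapped both. The mean share in POF differed from that in Blank by -3.31 percentage points, with a two-sided exact permutation p of 0.1, the lowest value 3 libraries against 3 can reach, and 0.3 after Benjamini-Hochberg adjustment over 3 comparisons. Without Blank replicate 1 the difference was -2.16, and without POF replicate 1 it was -2.22. The exact p was 0.5 for POF+BSHXF against POF and 0.4 for POF+BSHXF against Blank. Leaving out 1 library gave 0.185 (without POF replicate 1) to 2.24 (without POF+BSHXF replicate 1) points for the first of these, and -2.74 to -0.890 (without Blank replicate 1) for the second.

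ATP6 in POF replicate 3 touches this sum. A sum without ATP6 was added once its values were known. In it the other 5 rows took 14.9%, 18.1% and 15.6% in POF, 18.8% to 22.4% in Blank and 16.3% to 19.3% in POF+BSHXF. Among the POF libraries, replicate 3 lay near the highest with ATP6 and near the lowest without it.

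Counts were then compared per length, with mouse gene lengths standing in for those behind the table. Median CPM per kilobase over the 9 libraries were 58627 for CO1, 43586 for CO3, 43247 for CO2, 30918 for ATP8, 22683 for CYB and 11610 for ATP6. CO1 stood above CO3, CO2 above ATP8 and ATP8 above CYB in 9 of 9 libraries. CO3 and CO2 did not separate, since CO3 was the higher in only 6 of 9. CYB stood above ATP6 in 8 of 9, with POF replicate 3 as the exception. The fragments sequenced were on average longer than ATP8, so its value per length depends on how reads reaching into neighbours were counted.

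CO1, CO2 and CO3 are the mitochondrially encoded core of cytochrome c oxidase (complex IV), which passes electrons to oxygen. CO1 carries the haem and copper centre where oxygen is reduced. It stood at 127514, 90741 and 98175 CPM in Blank replicates 1 to 3. The POF libraries held 63378, 84275 and 73045 CPM, and those given the formula 74310, 93663 and 93574. All POF libraries lay below all Blank libraries, whereas POF+BSHXF replicates 2 and 3 lay between the lower Blank values.

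Against Blank, CO1 in POF had a log2 fold change of -0.52 ± 0.18 (SE, 95% interval -0.94 to -0.10), with an unadjusted p of 0.0218 and an adjusted p of 0.623 in edgeR's quasi-likelihood test. That difference did not pass the threshold. Without Blank replicate 1, the highest library, it was -0.37, and with DESeq2 it was -0.51 (DESeq2 adjusted p = 0.154, the lowest over all alternatives). In POF+BSHXF, CO1 differed from POF by 0.25 ± 0.18 and from Blank by -0.27 ± 0.18 on the log2 scale. Both 95% intervals spanned 0, from -0.18 to 0.67 and from -0.70 to 0.15.

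CO2 holds the copper site that takes electrons from cytochrome c. Its CPM values were 38584, 28625 and 30303 for Blank, 23815, 29024 and 24395 for POF, and 25598, 32511 and 31049 for POF+BSHXF. POF replicate 2 reached into the Blank range, so these groups overlapped. The log2 fold change of POF against Blank was -0.34 ± 0.16 (95% interval -0.71 to 0.04, edgeR adjusted p = 0.627), and -0.20 without Blank replicate 1.

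CO3 is a structural core subunit of the same complex. Blank libraries held 44549, 34531 and 35006 CPM of it, POF libraries 28327, 32723 and 27897, and POF+BSHXF libraries 29553, 36121 and 37237. The POF libraries lay below the Blank ones without overlap, by a log2 fold change of -0.36 ± 0.15 (95% interval -0.71 to -0.01, edgeR adjusted p = 0.623), which was -0.24 without Blank replicate 1. In POF+BSHXF, replicate 1 lay among the POF values and the other 2 among the Blank values.

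CYB, cytochrome b, is the mitochondrially encoded subunit of complex III, which hands electrons to cytochrome c. Its level was 31326, 25766 and 27452 CPM across Blank, 20456, 22995 and 20859 across POF, and 20896, 26345 and 29444 across POF+BSHXF. The POF values were again all below the Blank values and close together (SD 1365 around a mean of 21436 CPM). POF+BSHXF was spread over both ranges. The log2 fold change of POF against Blank was -0.39 ± 0.15 (95% interval -0.74 to -0.05, edgeR adjusted p = 0.623), and that of POF+BSHXF against POF was 0.25 ± 0.15 (-0.09 to 0.60).

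ATP8, a small membrane subunit of the ATP synthase, stood at 8403, 6509 and 6508 CPM in Blank. The POF libraries held 4642, 6739 and 5564 CPM, and the POF+BSHXF libraries 5686, 6387 and 6362. POF replicate 2 exceeded 2 of the Blank libraries, while all 3 POF+BSHXF libraries lay below Blank. The log2 fold change was -0.34 ± 0.17 for POF against Blank (edgeR adjusted p = 0.627) and -0.22 ± 0.17 for POF+BSHXF against Blank (edgeR adjusted p = 0.903). The first of these was -0.21 without Blank replicate 1 and also -0.21 without POF replicate 1.

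ATP6, the subunit that forms the proton channel of the ATP synthase with the ring of c subunits, differed from the other 5 rows in 1 library. Its levels were 9580, 8123 and 8540 CPM in Blank and 6533, 7268 and 7384 in POF+BSHXF. In POF they were 6040, 7663 and 29039. POF replicate 3 held 1628374 estimated counts for ATP6, whereas the other 8 libraries held 300087 to 486771. The mean in POF, 14247 ± 12836 CPM (SD, n = 3), therefore describes no library of the group.

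With that library, the log2 fold change of ATP6 in POF against Blank was 0.70 ± 0.55 (95% interval -0.57 to 1.98, edgeR adjusted p = 0.780), opposite in sign to the other 5 rows. Without POF replicate 3 it was -0.35 (edgeR adjusted p = 0.435), where the other 5 rows lay between -0.52 (CO1) and -0.30 (CO2). For POF+BSHXF against POF it was -1.01 ± 0.55 (edgeR adjusted p = 1) with all libraries and 0.04 without POF replicate 3.

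**Figure D2:**
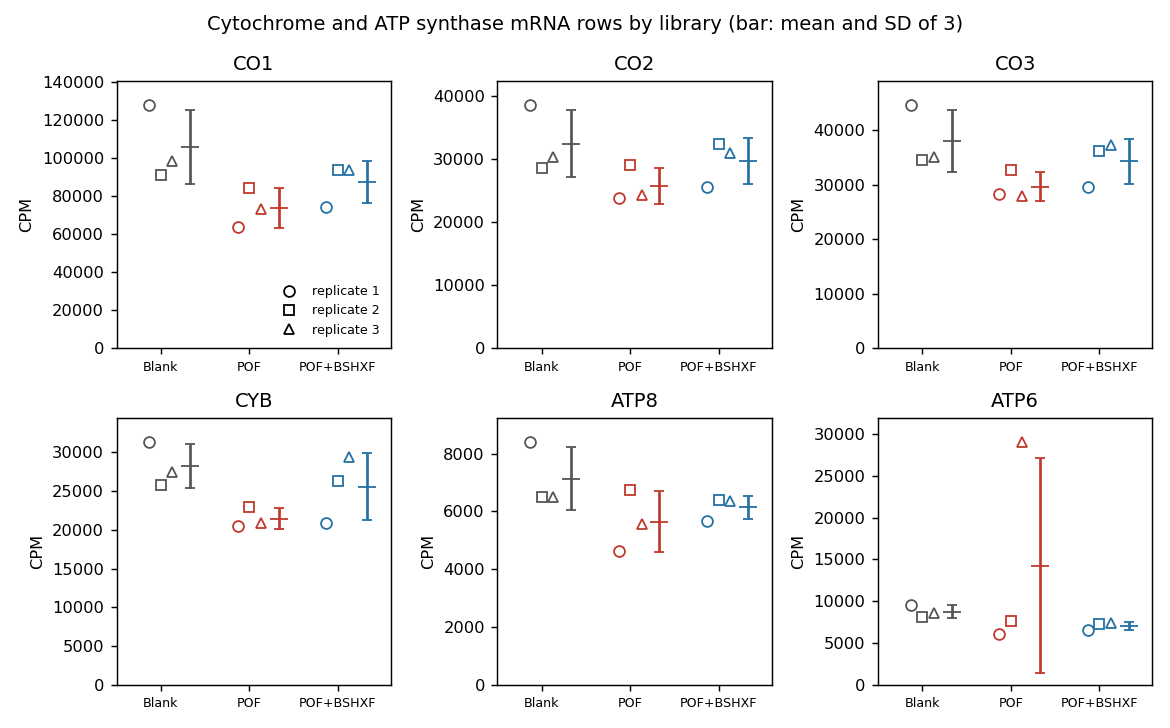
CPM with TMM-scaled totals for each of the 6 rows, by group; each symbol is 1 library, and the bar beside it gives the mean and SD of 3. For CO1, CO3 and CYB all POF libraries lie below all Blank libraries, and in the ATP6 panel POF replicate 3 stands at 29039 CPM with all others at or below 9580.

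The neighbours of ATP6 did not share the high value. Before TMM scaling, ATP6 in POF replicate 3 was 29878 CPM, 3.48 times the highest of the other 8 libraries and 3.96 times their median. ATP8 in the same library was 0.904 times the median of the others, and CO3, the next row downstream, was 0.833 times. The log2 ratio of ATP8 to ATP6 counts was -2.38 in POF replicate 3 and -0.39 to -0.19 in the other 8 libraries. The sum of ATP8, ATP6 and CO3 was 64306 CPM in POF replicate 3 and 41222 to 55979 in the others. CO3 alone was 28703 CPM in POF replicate 3, below the lowest of the others (29935). CO2 and CYB, which do not adjoin ATP6, were also lowest there, at 2.510% and 2.146% of all counts. The next lowest, POF replicate 1, held 2.517% and 2.162%. Of the 12 mitochondrial mRNA rows without ATP6, CO3 made up 13.4% in POF replicate 3 and 12.7% to 14.1% in the others. ATP8 made up 2.67% there and 2.31% to 2.66% in the others. Whether reads were divided differently among these rows in that library was not tested.

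Per kilobase of mouse gene length, ATP6 stood at 0.228 to 0.281 of CO3 in 8 libraries and at 1.20 of CO3 in POF replicate 3. Against ATP8, with which it shares an mRNA, it stood at 0.341 to 0.393 in those 8 and at 1.56 in POF replicate 3. In POF replicate 3 the ATP6 row was thus at 43874 CPM per kilobase, near the median of CO3 (43586). Which of the 2 levels reflects the mRNA was not tested.

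Such a jump was rare among abundant rows. Of the 1577 rows with a mean of at least 100 CPM, 1 was at least 3 times higher in 1 library than in any other, and it was ATP6 in POF replicate 3. Among the 9911 rows with a mean of at least 10 CPM, POF replicate 3 had 8 such rows, and the other libraries had 1 to 19 each, the most in POF replicate 1. Of the 2 rRNA rows, which lie upstream, 16S was also highest in POF replicate 3, but only at 1.07 times the highest of the others. Against the median of the others, 16S was at 1.52 times and 12S at 1.11 times.

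Set against all rows tested, the 6 rows were as follows in POF against Blank. None of them was called at an adjusted p of 0.05, where edgeR called 2 of 20723 rows (0.00965%). At an unadjusted p below 0.05, 3 of 6 were lower (CO1, CO3 and CYB) and 0 were higher, beside 3.25% lower and 4.57% higher of all rows. Of these 3 rows, 0 kept an unadjusted p below 0.05 without Blank replicate 1, without POF replicate 1 or without POF replicate 3, and only CO1 kept it without Blank replicate 3. The same 3 rows were lower without overlap of the groups and 0 were higher, beside 7.34% lower and 8.68% higher of all rows. The median log2 fold change was -0.35 for the 6 rows and 0.01 for all rows. These rows come from shared precursors and share their libraries, so they are not independent, and the count was not tested.

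For POF+BSHXF against POF, 0 of 6 rows were called, beside 0.00965% of all rows. At an unadjusted p below 0.05 there were also 0 of 6, beside 1.47% higher and 1.27% lower, and 0 of 6 had groups without overlap, beside 3.42% and 2.94%. The log2 fold change was above 0 for 5 rows, from 0.12 (ATP8) to 0.25 (CYB), and below 0 for ATP6, beside 49.02% of all rows below 0. The median of the 6 rows was 0.21. POF replicate 1 and POF+BSHXF replicate 3, which stand apart, bear on these sizes. Without both, CO1 differed by 0.10, CO2 by 0.12, CO3 by 0.12, CYB by 0.11 and ATP8 by -0.03, each with an edgeR adjusted p of 1.

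For POF+BSHXF against Blank, 0 of 6 rows were called, beside 0.00965% of all rows, and 0 of 6 had an unadjusted p below 0.05, beside 1.84% lower and 4.01% higher. All 6 log2 fold changes were below 0, from -0.31 (ATP6) to -0.13 (CO2), beside 49.02% of all rows. Without Blank replicate 1, however, the log2 fold change of CO2 turned to 0.002. Those of CO1, CO3, CYB and ATP8 then lay between -0.13 (CO1) and -0.03 (CO3). ATP8 and ATP6 were lower without overlap of the groups and 0 were higher, beside 6.03% lower and 6.04% higher of all rows. POF and POF+BSHXF were compared with the same Blank libraries, and Blank replicate 1 held the highest value of all 9 libraries for 5 rows and the highest Blank value for ATP6.

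The mitochondrial mRNAs of complex I, the first complex of the chain, gave similar sizes. In POF against Blank all 7 had log2 fold changes below 0, with a median of -0.37 from -0.53 (ND4L) to -0.02 (ND6), and 0 of 7 were called. Of all rows, 48.67% were below 0 in that comparison. ND3 and ND4L were the 2 of 7 with an unadjusted p below 0.05, both lower, beside 3.25% lower of all rows. In POF+BSHXF against POF, 0 of 7 were called and the median was 0.16. In POF+BSHXF against Blank all 7 were below 0, beside 49.02% of all rows, with a median of -0.20. The 22 tRNA rows, at far lower counts, had a median of -0.32 in POF against Blank, with 17 of 22 below 0 and 0 called. Their median was 0.36 in POF+BSHXF against POF, with 1 of 22 below 0, beside 49.02% of all rows. In POF+BSHXF against Blank it was -0.05, with 12 of 22 below 0. The tRNA rows were not uniform. In POF+BSHXF against Blank, tRNA-A, tRNA-N, tRNA-C and tRNA-Y lay between 0.71 and 0.74 (edgeR adjusted p = 0.782 each), while every mRNA row was below 0. In POF against Blank they lay between 0.09 and 0.25. A level shared by many of these rows, such as the share of mitochondrial RNA in the library, can enter their values. Its part in the values of single rows was not tested.

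**Figure D3:**
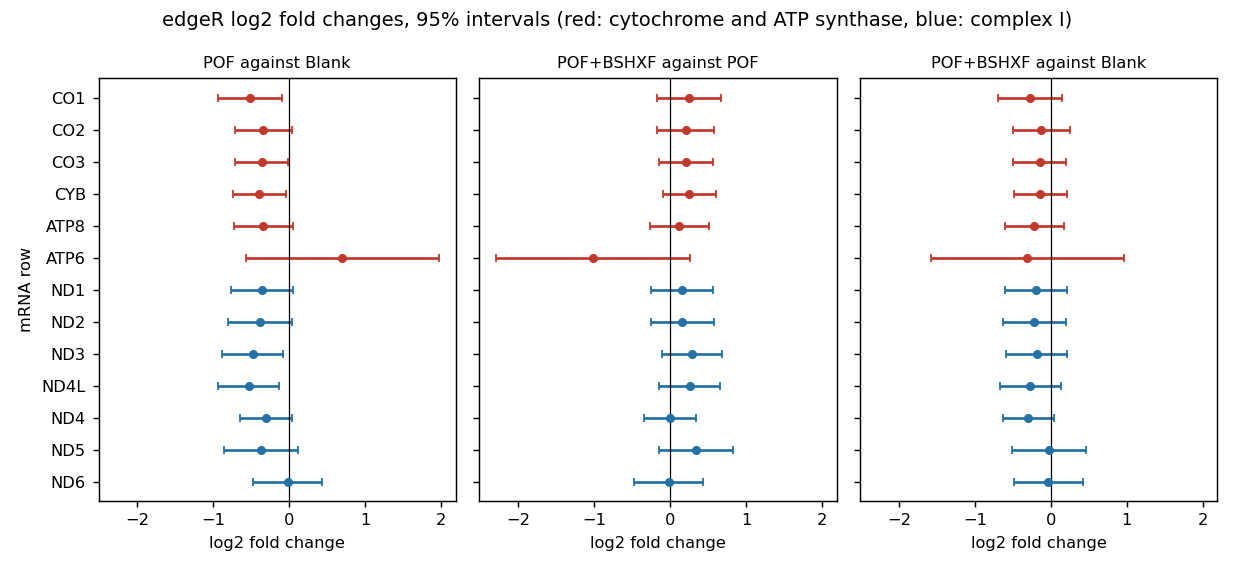
Log2 fold changes (points) with 95% intervals (bars) from edgeR for the 6 cytochrome and ATP synthase rows (red) and the 7 complex I rows (blue) in 3 comparisons. In POF against Blank the intervals of CO1, CO3, CYB, ND3 and ND4L lie below 0, and the ATP6 interval is the widest in every panel.

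The summed level of the 6 rows was set against that of the complex I rows. Over the 9 libraries, the log2 CPM of both sums had a Pearson r of 0.835 (exact permutation p = 0.00464, adjusted 0.00696 over 3 relations) and a Spearman rho of 0.800 (exact permutation p = 0.0138, adjusted 0.0258). Without Blank replicate 1 and POF replicate 1, the libraries farthest from the median, r was 0.705 (exact permutation p = 0.0762) and rho 0.643 (exact permutation p = 0.139). The relation thus rested in part on them. With ATP6 left out, r was 0.925 over 9 libraries (exact permutation p = 9.64e-04, rho = 0.783 with exact permutation p = 0.0172). Over 7 libraries r was 0.891 (exact permutation p = 0.0187), but rho was only 0.571 (exact permutation p = 0.2). Deviations from the group means gave r = 0.698 with ATP6 and 0.865 without it. Both sums share their library, its depth and its scaling.

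ATP8 and ATP6, on 1 mRNA, had a Pearson r of 0.008 (exact permutation p = 0.977) and a Spearman rho of 0.467 (exact permutation p = 0.213) over the 9 libraries. Without Blank replicate 1 and POF replicate 1, r was -0.58 (exact permutation p = 0.181). These 2 libraries were left out for their ATP8 level, so POF replicate 3, with its high ATP6, stayed in every value given here. The relation without POF replicate 3 was not computed. In all libraries but POF replicate 3, the log2 ratio of ATP8 to ATP6 counts stayed between -0.39 and -0.19.

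**Figure D4:**
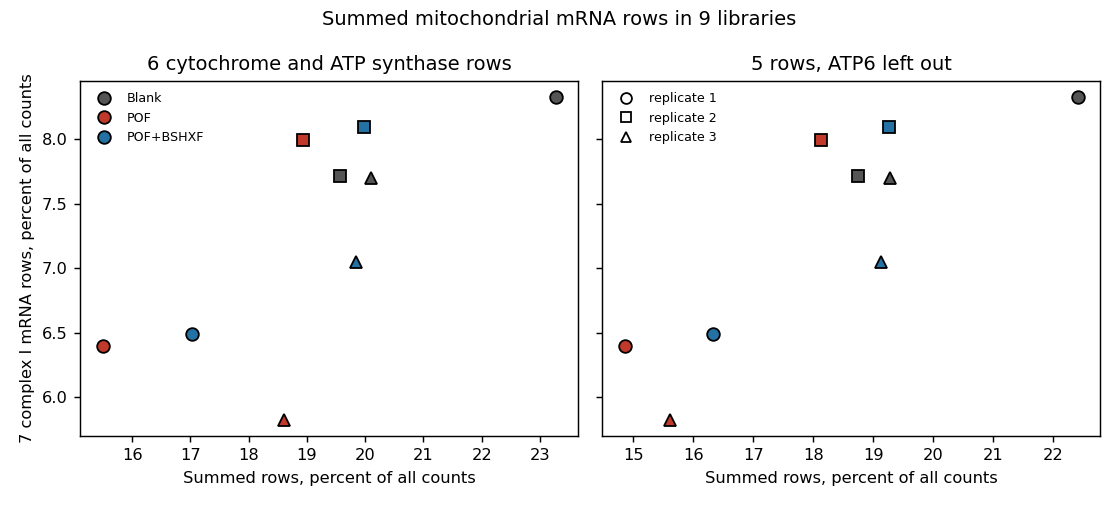
Percent of all counts in the 7 complex I rows (vertical) against the 6 cytochrome and ATP synthase rows (left) or 5 of them with ATP6 left out (right), 1 symbol per library, coloured by group. POF replicate 3 lies off the trend on the left, at 18.6% and 5.83%, and next to POF replicate 1 on the right, at 15.6%.

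Of the 20717 other tested rows, the 3 with the log2 CPM pattern most like the sum of the 6 rows lay outside the mitochondrial positions (Pearson r = 0.977, 0.960 and 0.954 over 9 libraries) and have no name here. The closest mitochondrial row was tRNA-F (rank 52, r = 0.898), which held only 9 to 27 counts per library, so such ranks say little. The closest mitochondrial mRNA rows were ND4L (rank 69, r = 0.889) and ND1 (rank 99, r = 0.868). With ATP6 left out of the sum, ND3 (rank 6, r = 0.943) and ND4L (rank 12, r = 0.928) were closest. ND6 is the 1 mRNA encoded on the opposite strand. It was at rank 6448 (r = 0.214) with ATP6 in the sum and at rank 3575 (r = 0.403) without it.

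Ratios within a library do not depend on its total or scaling. For 2 pairs they set Blank apart from POF and from POF+BSHXF, which overlapped each other. The ratios of CYB to CO1 and of ATP8 to ATP6 overlapped in every comparison. How often other pairs of rows set Blank apart in this way was not tested. The log2 ratio of CO2 to CO1 counts was -1.72, -1.66 and -1.70 in Blank. In POF it was -1.41, -1.54 and -1.58, and with the formula -1.54, -1.53 and -1.59. All 6 libraries of the model, with or without the formula, lay above all 3 Blank libraries. The mean difference from Blank was 0.18 for POF and 0.14 for POF+BSHXF. Each gave a two-sided exact permutation p of 0.1, the lowest possible here, and 0.3 after adjustment over 12 tests.

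The log2 ratio of CO3 to CO1 had the same order. Blank had -1.52, -1.39 and -1.49, POF had -1.16, -1.36 and -1.39, and POF+BSHXF had -1.33, -1.37 and -1.33. The gap was narrow, since Blank replicate 2 (-1.394) and POF replicate 3 (-1.389) nearly met. The mean differences from Blank were 0.16 for POF and 0.12 for POF+BSHXF (exact permutation p = 0.1 each, adjusted 0.3). Both ratios have CO1 as their denominator, so they are not independent.

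CYB to CO1 overlapped between groups, at -2.03, -1.82 and -1.84 for Blank, -1.63, -1.87 and -1.81 for POF, and -1.83, -1.83 and -1.67 for POF+BSHXF. The highest values were those of POF replicate 1 and POF+BSHXF replicate 3, the libraries that stand apart on the first principal component. Between POF+BSHXF and POF the mean differences were -0.04 for CO2 to CO1, -0.04 for CO3 to CO1 and -0.01 for CYB to CO1 (exact permutation p = 0.7, 0.9 and 1). Without POF replicate 1 they turned to 0.01, 0.03 and 0.06.

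**Figure D5:**
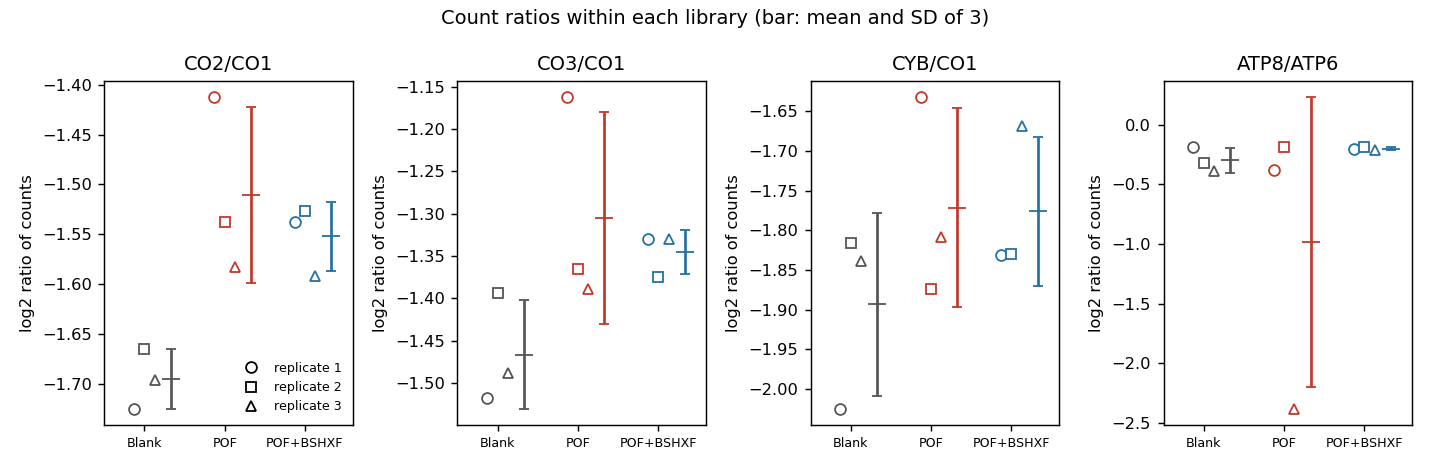
Log2 ratios of counts within each library for 4 pairs of rows, by group; the symbols are libraries, and bars give the mean and SD of 3. For CO2/CO1 the 3 Blank libraries lie at or below -1.66 and the other 6 at or above -1.59, and for ATP8/ATP6 POF replicate 3 alone lies at -2.38.

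The makeup of the 13 mitochondrial mRNA rows was described by each row's share of their summed counts. CO1 made up 36.1%, 33.5% and 34.5% of them in the Blank libraries. For POF the shares were 30.6%, 32.3% and 30.8%, and for POF+BSHXF 33.1%, 32.9% and 33.7%. The POF libraries lay below both other groups (exact permutation p = 0.1 each, adjusted 0.45 over 18 tests). Part of this came through ATP6 in the sum. With ATP6 left out of it, the CO1 share in POF replicate 3 was 35.1%, inside the Blank range of 34.5% to 37.1%, and the POF mean was 33.3% ± 1.77 against 35.7% ± 1.31 in Blank and 34.2% ± 0.396 in POF+BSHXF (SD, n = 3).

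The share of CO2 was 10.6% to 10.9% in Blank and 11.2% to 11.4% in POF+BSHXF, without overlap (exact permutation p = 0.1, adjusted 0.45), and 10.3% to 11.5% in POF. With ATP6 left out, CO2 made up 10.9% to 11.2% in Blank and 11.5% to 11.8% in POF. CO3, CYB and ATP8 had mean shares of 12.6%, 9.34% and 2.36% for Blank, 12.7%, 9.16% and 2.39% for POF, and 13.1%, 9.72% and 2.36% for POF+BSHXF, with overlapping groups. ATP6 made up 2.90% ± 0.164 in Blank and 2.71% ± 0.182 in POF+BSHXF. In POF it was 2.91% and 2.94% in replicates 1 and 2 and 12.2% in replicate 3. The POF+BSHXF libraries all lay below those of POF (exact permutation p = 0.1, adjusted 0.45), though the highest of the former, 2.910%, and the lowest of the latter, 2.915%, nearly met.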

How the data were processed

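The deposited table gives a whole number for each transcript and library. These were read as estimated counts, since totals differ between columns and StringTie is among the tools in the submitters' processing notes. The notes also list HISAT2 2.0.4, cutadapt 1.9 and the packages edgeR and DESeq2, with no role, and give StringTie as 1.3.4d; the sources used here do not give the build, annotation or counting step. Columns were matched to samples by group name and number, and 0 were left over.

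All 9 libraries entered 1 edgeR quasi-likelihood fit (edgeR 4.0.16, R 4.3.3) with TMM scaling. Rows were kept by filterByExpr (minimum count 10, minimum total 15), which left 20723, the 37 mitochondrial rows among them. Benjamini-Hochberg adjustment ran over all of them, with a threshold of 0.05. Standard errors were derived from the log2 fold change and its F statistic. Log2 CPM used a prior count of 2. Shares and ratios were compared by two-sided exact permutation tests over libraries. Counts limit precision little at these levels; the spread between libraries limits it. The scripts were tested on simulated data. With changes planted in rows of many levels, edgeR called 0% of the 2-fold and 40% of the 4-fold ones for POF against Blank. For POF+BSHXF against POF it called 2% and 42%. For rows in general, an absence of calls therefore says little about changes of 2-fold or less. The common biological coefficient of variation, edgeR's measure of spread between libraries, was 0.766. It was 0.473 for ATP6 and 0.193 to 0.209 for the other 5 rows. How often a change planted in these rows would be called was not tested. The 95% intervals of those 5 rows ran from -0.94 at the lowest to 0.67 at the highest, short of a 2-fold change.

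The rows named are the 6 at fixed positions, the 7 complex I rows and, for likeness, the closest rows. Nuclear gene lists and ovarian markers were not used, since no row has a symbol. The rows and lists were chosen with earlier results of these data known.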

Additional observations from a re-analysis of the deposited data

How the results depend on the processing

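For the 6 rows, 0 of 324 values over all alternatives passed the adjusted threshold, and 5 turned sign. With each library left out, the log2 fold change ran from -0.3535 to 1.069 for ATP6 in POF against Blank and from -1.378 to 0.04457 for ATP6 in POF+BSHXF against POF. It ran from -0.001252 to 0.268 for ATP8 in POF+BSHXF against POF (-0.02666 without POF replicate 1 and POF+BSHXF replicate 3 together) and from -0.2295 to 0.002242 for CO2 in POF+BSHXF against Blank.

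Called rows numbered 2 in each comparison. Under alternatives the 3 counts, listed with POF against Blank first, POF+BSHXF against POF next and the third last, were 496, 119 and 374 with DESeq2, and 1, 1 and 3 with limma-voom. They were 11, 15 and 10 without POF replicate 1 and POF+BSHXF replicate 3 together, and 9, 0 and 2 in fits of only 2 groups (364 at an unadjusted p below 0.05 where edgeR called 0). Leaving out 1 library gave 3 to 10, 0 to 9 and 0 to 10. The cause was not tested. A replicate block on the replicate number left 0, 0 and 0 edgeR calls (878, 382 and 554 rows at an unadjusted p below 0.05). Under it 0 of the 6 rows had an unadjusted p below 0.05 in POF against Blank (CO1 0.0507, CYB 0.0636, CO3 0.0920). The numbers gave no sign of pairing: 0 of 9 pairs of libraries with one number had a correlation of deviations above 0.1 (-0.284 to 0.027).

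Some differences in shares and ratios turned sign. Without POF replicate 1 and POF+BSHXF replicate 3 together, POF+BSHXF minus POF was -0.265 points for the summed share and 0.02799, 0.0243 and 0.01081 for the log2 ratios of CO2, CO3 and CYB to CO1. There the share of the 13 mRNA rows gave -0.0135 (CO2) and -0.408 (CO3) points for POF minus Blank, and 0.0334 (ATP8) and -0.0552 (CYB) for POF+BSHXF minus Blank. Without ATP6 in the denominator, CYB in POF minus Blank was 0.131, and CO2 and CO3 in POF+BSHXF minus POF were -0.0168 and -0.00997. Over the 6 rows alone, ATP8 in POF+BSHXF minus Blank was 0.00521.

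With each library left out, share differences for POF minus Blank ran from -0.0135 to 0.596 (CO2), -0.0641 to 0.107 (ATP8), -0.408 to 0.553 (CO3) and -0.542 to 9.04e-04 (CYB). For POF+BSHXF minus POF they ran from -0.121 to 0.0641 (ATP8) and -0.0171 to 0.944 (CO3), and for POF+BSHXF minus Blank from -0.0882 to 0.0548 (ATP8) and -0.0552 to 0.609 (CYB). Log2 ratios ran from -1.08 to 0.01775 (ATP8/ATP6, POF minus Blank), and for POF+BSHXF minus POF from -0.0769 to 0.008161 (CO2/CO1), -0.08145 to 0.032 (CO3/CO1) and -0.05901 to 0.06482 (CYB/CO1). Without Blank replicate 1 and POF replicate 1 together, the relation to complex I had r = 0.705 and that of ATP8 to ATP6 r = -0.583. POF replicate 3 was among the libraries in both.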
